A study of Mus musculus with 24 samples.

Results

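Very long protein-protected sites (PPSs), those that span 200 nt or more, were examined across erythroid differentiation of MEL cells. A PPS is a stretch of RNA that was shielded from nuclease while proteins were crosslinked to it. The 3 deposited PPS lists held 460777 PPSs, of which 3578 had an end minus start of at least 200 nt and were taken as long sites. The day 0 list contributed 1348 of its 138689 PPSs, the day 2 list 738 of 169575 and the day 4 list 1492 of 152513. Members were chosen by their measured length alone, so the lengths, and the merging that produces them, are given as a description.

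Protein interaction profile sequencing (PIP-seq) compares RNA digested with bound proteins still in place against RNA stripped of protein first. MEL is an established mouse erythroleukemia line held at the proerythroblast stage, and it proceeds toward hemoglobin-producing cells when DMSO is added. Cultures were collected undifferentiated (day 0) and after 2 and 4 days in 2% DMSO, all were crosslinked with formaldehyde, and each time point had 2 biological replicates of this single line. Every replicate was split and digested with a single-strand-specific nuclease (ssRNase, RNaseONE) or a double-strand-specific one (dsRNase, RNase V1), with and without proteins present, which makes 24 libraries and 12 sets of PPS calls. The authors merged the calls of a day into 1 list, in which each PPS names its calls and carries a summed enrichment score. The lists do not give the number of reads behind a PPS, so the depth is unknown.

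Most RNA-binding proteins contact a few nucleotides, and a protected stretch this long usually spans many neighbouring contacts. Runs of this kind are known from RNAs that stay in the nucleus, such as introns before splicing and the architectural RNAs Malat1 and Neat1, and from RNAs built around small structured units, such as primary microRNAs and snoRNA host transcripts. Minisatellites are DNA arrays in which a short unit is repeated head to tail. When an array lies inside an intron, the pre-mRNA carries the same short sequence many times over.

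Many of the longest sites lay on such arrays. The following stretches are the first 30 nt (or 1 full unit, where that is shorter) that begin with the most repeated 12-nt word of 8 arrays, read 5′ to 3′ on the transcribed strand from the GRCm38 reference. They are shown because each of these repeats carried a protected stretch of at least 1115 nt. The capitals mark the repeated word.
Pfkp: AAGGCAGACTGGagggccctctgctcagta
Zswim6: AAGTATCTGCAGgtgctgtcacctggagga
Nsun4: ACTGAGTACTGTggatgctgtatagatgaa
Golt1b: AATGAATGAAGCgtgcttgtgtctgctgtc
Trip4: GAGATGATGGCTcagcatgtgaaggcatcc
Rps6kc1: GTCTGATGAAGGcactgtagccctgtgcag
Dph5: ACCCGGCATACAgagcctgagaactgtaag
Rsrc1: GGGAGTGGACTAtaccctgagcacacg

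The most extreme case was Pfkp, which encodes the platelet-type phosphofructokinase of glycolysis. Its longest site at day 0 was also the longest and the highest-scoring PPS of any list. It lay in an intron at chr13:6607857-6610305 on the minus strand, spanned 2449 nt, held 39 calls (13 and 14 from the ssRNase replicates, 8 and 4 from the dsRNase replicates) and scored 449.21. The word shown above occurred 41 times in it, with a period of 60 nt, and 99.0% of its 12-nt words occurred more than once. The second longest PPS of day 0 was no repeat but a site of 1646 nt that matches mitochondrial DNA. At day 2 the longest sites were an intronic array of Zswim6 (chr13:107858448-107860033, minus strand, 1586 nt, 11 calls, period 39 nt) and a neighbouring stretch of the Pfkp array (chr13:6606406-6607524, 1119 nt, 20 calls), followed by a site without repeats in the nuclear RNA Malat1 (chr19:5800403-5801486, minus strand, 1084 nt, 8 calls). At day 4 they were the same Zswim6 array (1592 nt, 7 calls) and intronic arrays of Trip4 (chr9:65867646-65869034, minus strand, 1389 nt, 8 calls, period 34 nt) and Rsrc1 (chr3:67262542-67263656, plus strand, 1115 nt, 9 calls, period 27 nt). Trip4 encodes a transcriptional coactivator, and Rsrc1 a protein with arginine-serine-rich stretches. Nsun4, an RNA methyltransferase of mitochondrial ribosomes, carried 1441 nt at day 0 (chr4:116044892-116046332, minus strand, 10 calls, period 32 nt). Golt1b, a vesicle transport protein, carried 1430 nt at day 0 with 35 calls and a score of 316.36 (chr6:142398721-142400150, plus strand, period 52 nt).

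To count such sites, a PPS was placed on a tandem repeat when at least 50% of the 12-nt words in a fixed 400-nt window around its centre occurred more than once in that window. The window does not depend on PPS length. Over all lengths, 1.16%, 1.46% and 1.14% of the PPSs of the 3 lists in day order met this limit. Among the long sites of day 0, 268 of 1348 did, or 19.9% (17.8 to 22.1, Wilson 95% interval). Day 2 had 246 of 738, or 33.3% (30.03 to 36.8), and day 4 had 239 of 1492, or 16.0% (14.2 to 17.97). The share was higher in each longer class from 41 nt upward on all 3 days. At 200 to 299 nt it was 12.6%, 25.9% and 10.9% on the 3 days in order, at 300 to 499 nt it was 40.4%, 52.0% and 27.4%, and at 500 nt or more it was 67.2% (43 of 64), 84.6% (33 of 39) and 60.7% (37 of 61). These intervals cover counting error only, and the measure was chosen after the sequences of the longest sites had been seen, so no test was made.

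**Figure D1:**
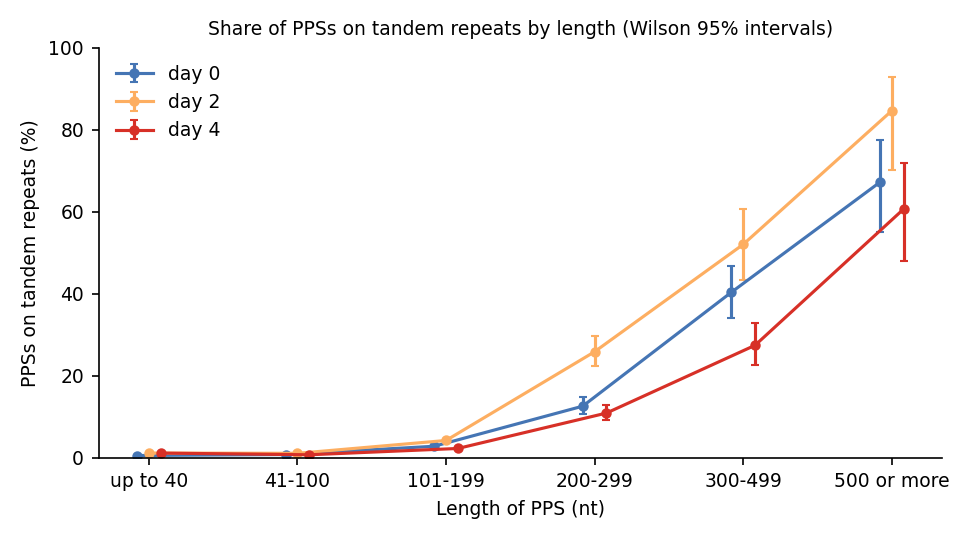
Percentage of PPSs on tandem repeats (y axis) by PPS length in nt (x axis) at day 0, day 2 and day 4, with Wilson 95% intervals as error bars. The share stays below 5% for PPSs under 200 nt and reaches 67.2%, 84.6% and 60.7% for sites of 500 nt or more at day 0, day 2 and day 4.

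Repeat-borne long sites had a narrow unit size and were mostly intronic. Their median period was 39, 36 and 37 nt on the 3 days in order, and 94.0%, 95.9% and 97.1% of these sites had a period between 20 and 70 nt. They lay wholly within introns in 85.8%, 85.4% and 84.1% of cases. The 3 lists together marked 273 arrays with a median extent of 653 nt in the genome, the largest being the Pfkp array of 7146 nt at chr13:6605781-6612926. PPSs of any length covered 97.2% of that array at day 0, 96.1% at day 2 and 88.8% at day 4. Over all 273 arrays, PPSs held 58.4%, 60.7% and 51.6% of array nucleotides on the 3 days in order. On the opposite strand it was 4.85%, 4.96% and 4.00%. No PPS was found on the opposite strand of 257 arrays on any day, and 13 of the other 16 were on chromosome X or Y, in end regions whose copies share sequence. The authors kept reads that aligned at up to 10 places. The part of that choice in the calls on repeats was not tested.

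Long sites were fewest at day 2, and the difference lay mainly in sites outside repeats. The share of PPSs that were long was 0.972% in the first list, with a 95% interval by Wilson of 0.922 to 1.02. It was 0.435% in the day 2 list (0.405 to 0.468) and 0.978% in the day 4 list (0.930 to 1.03). Day 2 minus day 0 was -0.537 percentage points (95% interval of the difference by Newcombe -0.598 to -0.477), day 4 minus day 2 was 0.543 points (0.485 to 0.602), and day 4 minus day 0 was 0.00632 points (-0.0653 to 0.0777). Repeat-borne sites numbered 268, 246 and 239 on the 3 days in order. The remaining sites numbered 1080, 492 and 1253. Of the repeat-borne sites, 248 and 250 held a call of replicate 1 and replicate 2 at day 0, 221 and 235 at day 2, and 227 and 210 at day 4. Of the remaining sites, 1063 and 1063 did so at day 0, 480 and 491 at day 2, and 1246 and 1239 at day 4. The day 2 counts lay below those of the other days in both replicates for the remaining sites, with a difference from day 0 of between -583 and -572 over the 4 replicate pairs. For repeat-borne sites, the difference between day 4 and day 2 ranged from -25 to 6 over the same kind of pairs. Since most long sites hold calls of both replicates, the replicate counts share most of their sites and understate the spread between cultures. The day 2 list was also shorter in general. PPSs under 200 nt had a median length of 57, 50 and 55 nt on the 3 days in order. PPSs of 40 nt or less numbered 26152 of 138689 at day 0, 53243 of 169575 at day 2 and 33557 of 152513 at day 4. The part of this shift in the day 2 count of long sites was not tested.

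**Figure D2:**
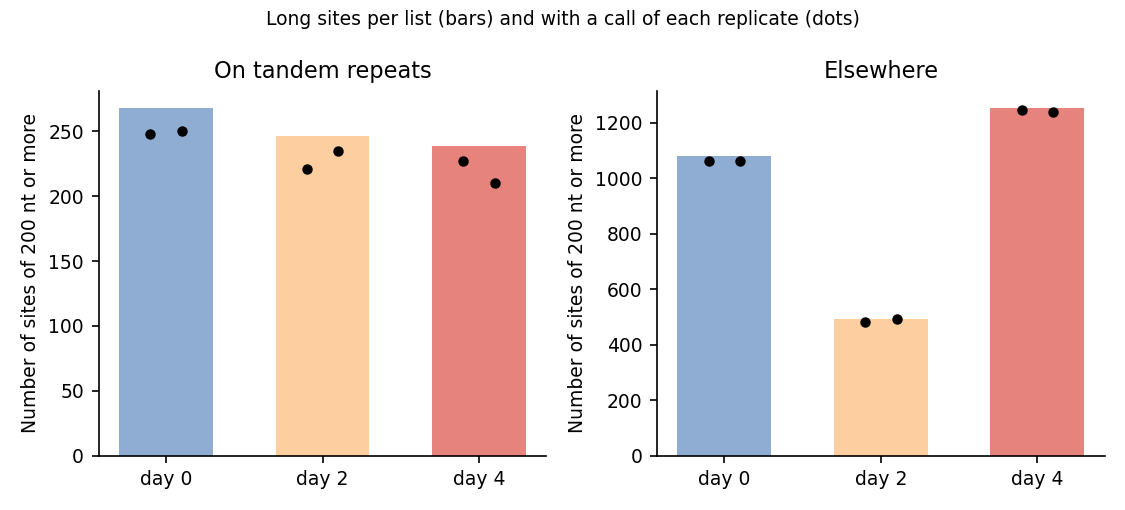
Number of long sites per day on tandem repeats (left) and elsewhere (right). Bars give the deposited list and dots the sites that hold a call of replicate 1 or 2; the left bars stand at 268, 246 and 239 and the right bars at 1080, 492 and 1253.

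Of all PPS nucleotides, long sites held 4.11%, 2.17% and 4.22% on the 3 days in order. Their median length was 239, 240.5 and 242 nt, and 64, 39 and 61 of them reached 500 nt. The members just inside the threshold resembled those just outside. Sites of 200 to 204 nt numbered 120, 65 and 137 with median scores of 31.2, 35.2 and 35.7, while PPSs of 195 to 199 nt numbered 126, 85 and 152 with median scores of 31.3, 33.0 and 35.8.

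Long sites were assembled from many calls. They had a median of 4, 4 and 5 calls on the 3 days in order, with a maximum of 39, 20 and 22, against a median of 1 for shorter PPSs on every day. Single calls accounted for 53, 44 and 45 long sites, or 3.93%, 5.96% and 3.02%. At least 5 calls were merged in 41.3%, 44.7% and 55.0% of long sites. Both replicates contributed to 94.7%, 93.4% and 95.8% of long sites, where they contributed to 26.2%, 23.2% and 29.5% of all PPSs. All 4 call sets of the day contributed to 359, 165 and 572 long sites. Because merging sets both the length and the number of contributors, these shares restate the rule in part and were not tested. The sites on repeats were less merged across nucleases: 48.1%, 43.5% and 51.0% of them held calls of both nucleases, against 73.1%, 74.6% and 79.2% of the other long sites.

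Sites with ssRNase calls only outnumbered those with dsRNase calls only, and the members of these groups lay in different parts of transcripts. At day 0, 370 long sites held ssRNase calls only, 59 dsRNase calls only and 919 both. At day 2 the numbers were 253, 11 and 474, and at day 4 they were 249, 129 and 1114. Shorter PPSs with ssRNase calls only numbered 74164, 113287 and 52401 on the 3 days and those with dsRNase calls only 42435, 34592 and 69548, so that long sites were 0.496%, 0.223% and 0.473% of the former kind of PPS and 0.139%, 0.0318% and 0.185% of the latter. Introns made up 63.2%, 67.2% and 60.2% of the nucleotides of the ssRNase-only sites on the 3 days. In the dsRNase-only sites the intron share was 6.27%, 0% (of 11 sites) and 14.3%. The 3′ UTR share was 38.7%, 17.3% and 40.9% in dsRNase-only sites and 3.86%, 2.37% and 3.76% in ssRNase-only sites. Tandem repeats held 35.9%, 54.2% and 41.8% of the ssRNase-only sites and 10.2%, 18.2% and 10.1% of the dsRNase-only sites. The intron share had the same direction among shorter PPSs, with the narrowest contrast at day 4. It was 55.5%, 54.4% and 47.5% for ssRNase only and 16.7%, 21.9% and 36.7% for dsRNase only on the 3 days in order.

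The nucleases were then compared over call sets. Among single-call PPSs, whose length does not come from merging, long sites numbered 24 of 31778 and 19 of 27841 in the ssRNase replicates of day 0 and 3 of 16394 and 7 of 20409 in the dsRNase replicates. At day 2 they numbered 10 of 39347 and 34 of 53208 for ssRNase, and 0 of 22422 and 0 of 9527 for dsRNase, which allow shares of up to 0.0134% and 0.0315%. At day 4 they numbered 19 of 21207 and 11 of 18905 for ssRNase, and 12 of 35491 and 3 of 24477 for dsRNase. Most single-call long sites lay on tandem repeats (31 of 53, 32 of 44 and 33 of 45 on the 3 days in order). The comparison therefore covers mainly repeat-borne sites. The ssRNase share was the higher one in 6 of 6 same-replicate pairs, with means of 0.0635% and 0.0164%. The difference of 0.0470 percentage points gave p = 0.00926 in a two-sided exact permutation test within days, the smallest p this design allows, and 0.185 after Benjamini-Hochberg adjustment over 20 tests, so it did not pass. Between days, single-call long sites were less frequent at day 2 than at day 0, with a mean difference of -0.0268 points and a lower value in 8 of 8 pairs, and with an exact permutation p = 0.0556 that is the smallest this design allows (adjusted p = 0.278). Day 4 and day 0 differed by -0.000630 points, with pair differences from -0.0220 to 0.0213 (exact permutation p = 0.889, adjusted p = 1). Class and base composition of these few single-call sites gave no adjusted p below 0.278 by the same exact permutation tests. Day 2 was left out of them because its dsRNase sets held no such site.

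When all long sites that hold a call of a set were used, there were between 324 and 1251 sites per set and the nucleases separated on every day. In this comparison sets share merged sites, so they are not independent. The intron share of nucleotides was 50.7% and 50.8% in the ssRNase replicates of day 0 and 39.8% and 39.7% in its dsRNase replicates. It was 49.7% and 52.5% against 39.7% and 36.1% at day 2, and 44.2% and 44.2% against 34.7% and 32.8% at day 4. The nucleases did not overlap on any day, and ssRNase was higher by 11.5 percentage points on average (exact permutation p = 0.00926, adjusted p = 0.0667 over 36 tests). The 3′ UTR share ran the other way, at 5.24% ± 0.420 for ssRNase and 10.0% ± 0.879 for dsRNase at day 0, 3.15% ± 0.360 and 4.30% ± 0.217 at day 2, and 8.60% ± 0.0408 and 15.2% ± 0.00144 at day 4 (SD, n = 2 each). The CDS share was lower for ssRNase in all 6 pairs, by 4.79 points on average (exact permutation p = 0.00926, adjusted p = 0.0667). Guanine made up 29.5% of long-site nucleotides for ssRNase and 27.3% for dsRNase on average, higher in 6 of 6 pairs (exact permutation p = 0.00926, adjusted p = 0.0667). No adjusted p in this family fell below 0.05.

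**Figure D3:**
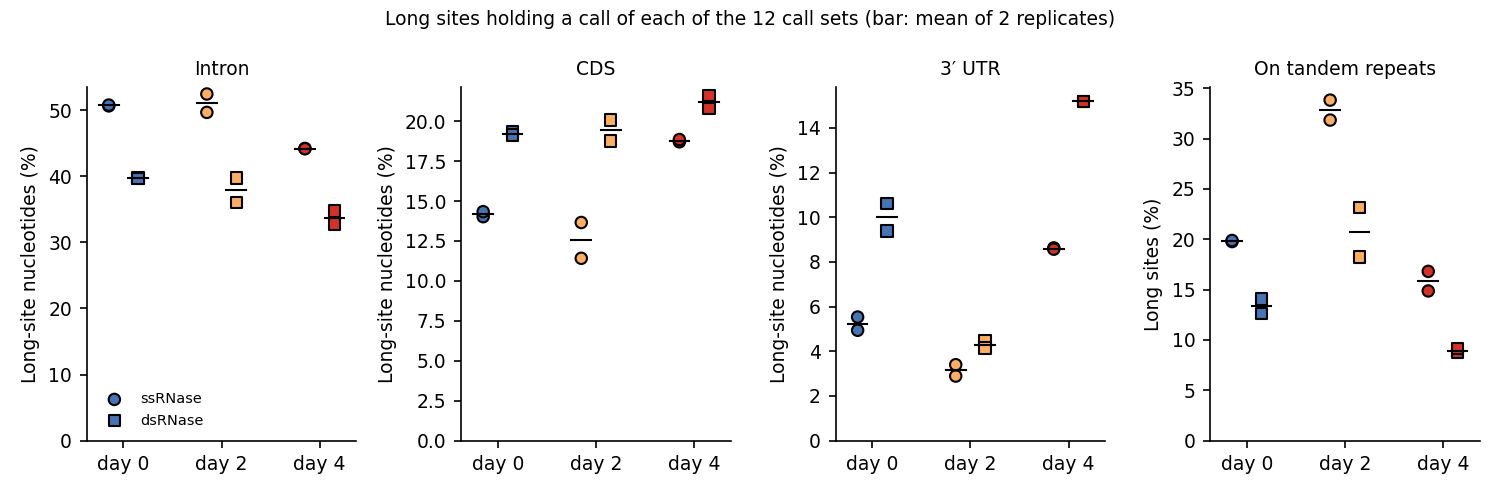
Composition of the long sites that hold a call of each of the 12 call sets: percentage of nucleotides in introns, CDS and 3′ UTRs, and percentage of sites on tandem repeats. Circles are ssRNase, squares dsRNase, and bars the mean of 2 replicates; ssRNase lies above dsRNase for introns and repeats and below it for CDS and 3′ UTRs on all 3 days.

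The class composition also moved with the day. Over the pooled lists, introns held 48.5%, 50.3% and 41.1% of long-site nucleotides, CDS 15.5%, 13.3% and 18.5%, 3′ UTRs 7.18%, 3.58% and 12.1%, and exons of noncoding transcripts 13.5%, 14.5% and 10.03%. In shorter PPSs of the same days, introns held 41.1%, 45.4% and 41.5%, CDS 32.0%, 28.5% and 30.2%, 3′ UTRs 13.0%, 11.2% and 14.7%, and noncoding exons 5.90%, 5.91% and 5.49%. The 3′ UTR share thus had the same order of days in shorter PPSs. Over call sets, the intron share at day 4 was below that at day 0 in 8 of 8 pairs, by 6.24 points on average, and the 3′ UTR share was above it in 8 of 8 pairs, by 4.27 points. Both gave an exact permutation p = 0.0556, the smallest this design allows (adjusted p = 0.0714). The call sets of a day share most of their merged sites. The 8 pairs are therefore not independent, and neither they nor the p-value measure the spread between cultures. Without the repeat-borne sites, introns held 35.2%, 27.8% and 29.7% of long-site nucleotides and noncoding exons 17.9%, 23.1% and 12.04%. Among sites placed on 1 transcript per protein-coding gene, 149 of 1101 long sites at day 0 crossed an exon boundary (13.5%, against 5.69% of shorter PPSs), 55 of 561 at day 2 (9.80% against 4.39%) and 154 of 1156 at day 4 (13.3% against 5.37%). A longer site meets more boundaries, so this was not tested. Of the long sites wholly within an exon, 49.8%, 46.4% and 57.3% lay in the last exon, against 38.2%, 38.1% and 41.9% of shorter PPSs. A site can lie wholly only within an exon at least as long as itself, so the length minimum limits which exons can hold a long site. Exons were not matched for length, so the contrast does not show a preference for the last exon and was not tested.

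Long sites were often covered by PPSs of any length on other days, but most of the regions they formed were long on a single day. PPSs of day 2 covered 64.9% of the long-site nucleotides of day 0, PPSs of day 4 covered 63.5%, and over the 6 ordered pairs of days the share ran from 60.9% to 72.4%. For shorter PPSs it ran from 37.7% to 41.8%. Calls of both replicates were also rarer in shorter PPSs (25.5%, 22.9% and 28.8% on the 3 days, against 94.7%, 93.4% and 95.8% of long sites). The part of this in the contrast was not tested. Long sites were also set against the long sites of other days. Of the 268 repeat-borne sites of day 0, 50.4% touched a long site at day 2 and 53.7% at day 4. Of the 1080 other long sites, 16.0% and 24.1% did so. Joined across days, the long sites formed 2683 regions, of which 178 (6.63%) were long on all 3 days, 827 at day 0 only, 299 at day 2 only and 968 at day 4 only.

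Genes were assigned on the same strand by GENCODE release M21. Long sites touched 808 genes at day 0, 525 at day 2 and 740 at day 4, or 7.79%, 4.74% and 7.2% of the genes with any PPS. Together they touched 1375 genes, of which 184 (13.4%) held a long site on all 3 days and 167 did so with calls of both replicates. A single long site was found in 585, 423 and 508 of the genes. At least 5 long sites were held by 32, 12 and 53 genes. Fewer RNA molecules of a gene and less protection of each molecule cannot be told apart in these lists.

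The genes with the most long-site nucleotides on their lowest day were mostly hosts of intronic arrays. Pfkp held 6707, 6294 and 3439 nt in 11 long sites on each day. Snx9, a sorting nexin of endocytosis, held 3737 nt in 13 sites, 2031 nt in 7 and 5685 nt in 15, in introns with a pair of arrays of 5670 nt and 3085 nt. Golt1b held 3330, 1845 and 1241 nt, Rps6kc1 1718, 1970 and 1542 nt, Zswim6 1560, 1586 and 1797 nt, Psmd9 1349, 1261 and 1319 nt, Dph5 1232, 1048 and 1086 nt, and Nsun4 1441, 1231 and 981 nt. Psmd9 is a chaperone of proteasome assembly and Dph5 a methyltransferase of diphthamide synthesis. All long-site nucleotides of Psmd9, Dph5, Nsun4, Golt1b and Rps6kc1 were on tandem repeats on every day. From day 0 to day 4 the sums of Psmd9, Dph5, Rps6kc1 and Zswim6 changed by -30, -146, -176 and 237 nt, and those of Golt1b and Snx9 by -2089 and 1948 nt.

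The exceptions without repeats were Malat1 and Cbfa2t3. Malat1, the abundant nuclear speckle RNA, held 5293 nt in 13 long sites at day 0, 4658 nt in 10 at day 2 and 2930 nt in 8 at day 4, out of 21, 20 and 18 PPSs of any length. Its long sites were made of 43 ssRNase and 22 dsRNase calls at day 0 and 32 and 23 at day 2. At day 4 they were made of 0 ssRNase and 15 dsRNase calls, and its PPSs of any length held 4 and 26. Neat1, the scaffold of paraspeckles, held 1547 nt in 3 sites at day 0, 490 nt in 2 at day 2 and 3055 nt in 9 at day 4, with 40 ssRNase and 21 dsRNase calls at day 4. Cbfa2t3, a corepressor of the erythroid TAL1 complex, held 5390, 1435 and 4082 nt in 20, 5 and 16 long sites, nearly all intronic.

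**Figure D4:**
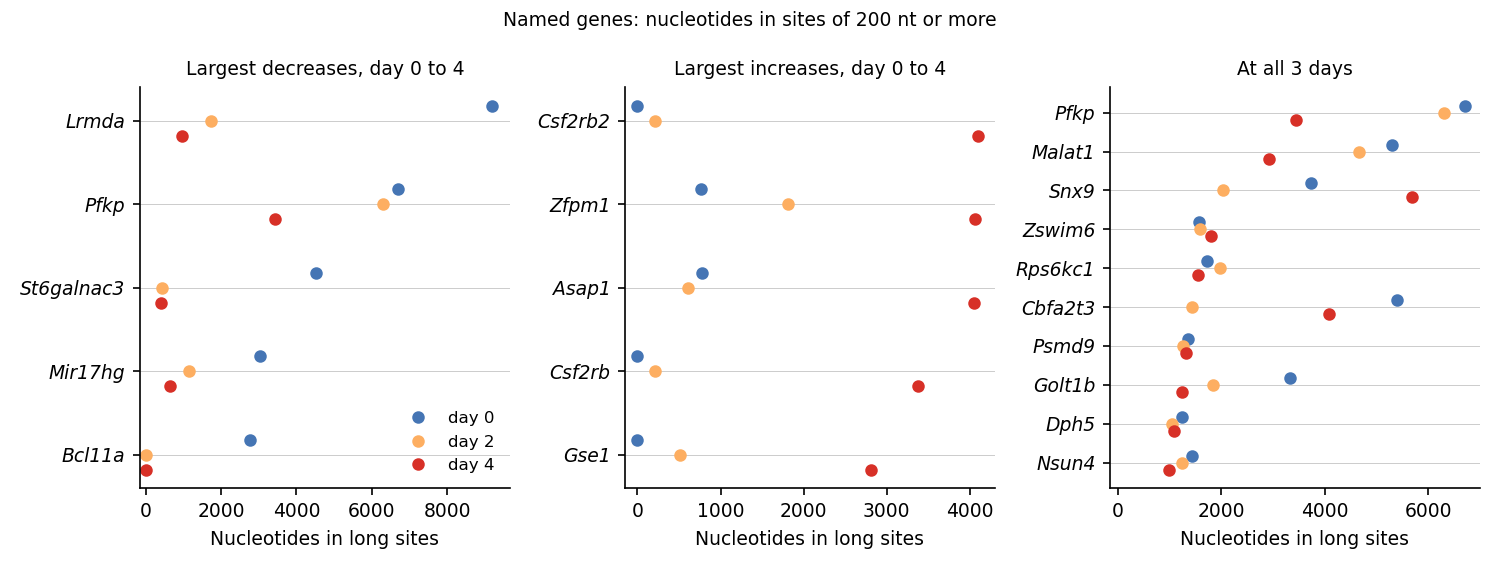
Nucleotides in long sites (x axis) at day 0, day 2 and day 4 in the genes with the largest decreases from day 0 to day 4, the largest increases, and the most long-site nucleotides on their lowest day. Lrmda goes from 9198 to 956 nt, Csf2rb2 goes from 0 to 4097 nt, and Psmd9 lies between 1261 and 1349 nt on the 3 days.

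The largest decreases from day 0 to day 4, which were ranked and not tested, were in Lrmda, St6galnac3, Pfkp, Bcl11a and Mir17hg. Lrmda, a leucine-rich repeat gene tied to melanocyte differentiation, went from 37 long sites (9198 nt) to 7 (1724 nt) and 4 (956 nt), all intronic. Its PPSs of any length numbered 1408, 1274 and 973, so long sites were 2.63%, 0.549% and 0.411% of them. St6galnac3, a sialyltransferase, went from 17 sites (4516 nt) to 1 (421 nt) and 1 (417 nt), and the site of day 2 and that of day 4 lay on a repeat. Its PPSs of any length numbered 529, 356 and 66. Bcl11a, a repressor of fetal globin genes, held 11 long sites (2775 nt, 36 ssRNase and 18 dsRNase calls) at day 0 and none later, while its PPSs of any length went from 304 to 156 and 19. The change in Pfkp was -3268 nt, with 73, 110 and 79 PPSs of any length on the 3 days in order. Only genes with a change of the same sign in all 4 replicate pairs were ranked, so that agreement was set by the rule. Of the 1375 genes, 42% were lower at day 4 in all 4 pairs and 40.3% were higher. Replicate values of a gene sum the merged sites with a call of that replicate, so the 4 pairs mostly compare the same sites.

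Mir17hg, the host of the oncogenic miR-17-92 cluster, held 3026, 1150 and 648 nt, with 12, 26 and 22 PPSs of any length. Its main site at day 0 was the second highest in score (316.92) of that list. It covered the entire cluster (chr14:115043548-115044951, plus strand, 1404 nt) with 28 calls, 16 from ssRNase and 12 from dsRNase, and it was not a tandem repeat. By day 4 the long sites there contained the hairpin of Mir19b-1 only. The mature sequences within the site, from RefSeq on GRCm38.p6 with the seed (bases 2 to 8) in capitals, show the seed groups that this single protected stretch held together: miR-17-5p and miR-20a-5p share a seed, miR-18a-5p differs from them, miR-19a-3p and miR-19b-3p share another, and miR-92a-3p has its own.
miR-17-5p: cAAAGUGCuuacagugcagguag
miR-20a-5p: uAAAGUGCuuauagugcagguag
miR-18a-5p: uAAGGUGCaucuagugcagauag
miR-19a-3p: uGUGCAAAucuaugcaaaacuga
miR-19b-3p: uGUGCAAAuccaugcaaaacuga
miR-92a-3p: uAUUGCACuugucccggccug

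Other small RNA genes lay inside long sites as well. At day 0, 55 annotated snoRNA genes lay wholly within a long site, 19.1% of the 288 that touched any PPS. The numbers were 31 of 322 at day 2 (9.63%) and 30 of 292 at day 4 (10.3%). MicroRNA hairpins inside long sites numbered 12 of 89, 5 of 118 and 2 of 94. These counts include the miR-17-92 hairpins of Mir17hg. They were Mir17, Mir18, Mir19a, Mir20a, Mir19b-1 and Mir92-1 at day 0, Mir17, Mir20a and Mir19b-1 at day 2, and Mir19b-1 at day 4. Hairpins of other loci included Mir142, a microRNA of blood cells, at day 0 and day 2, and Mir16-1 at day 0. Long sites touched a snoRNA or scaRNA gene in 4.15%, 4.88% and 1.94% of cases, against about 0.2% of shorter PPSs (0.194%, 0.203% and 0.204%). These shares are per site, and a longer site meets more genes by its length, so the contrast was not tested. Gas5, a snoRNA host with short exons, held 2488, 1006 and 916 nt in 7, 4 and 3 long sites. One of the highest-scoring sites of day 4 lay in Taf1d, a subunit of an RNA polymerase I factor whose introns encode snoRNAs (chr9:15313636-15314347, plus strand, 712 nt, 16 calls, score 199.51).

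The largest increases from day 0 to day 4, ranked in the same way, were in Csf2rb2, Csf2rb, Zfpm1, Asap1 and Gse1. Csf2rb2, a beta chain of the interleukin-3 receptor, went from 0 long sites to 1 (213 nt) and 15 (4097 nt), and its PPSs of any length from 27 to 86 and 125. Its 15 sites were 2685 nt intronic, 1137 nt in the 3′ UTR and 275 nt in CDS, with 25 ssRNase and 45 dsRNase calls. Its paralog Csf2rb went from 0 to 1 (211 nt) and 12 (3380 nt). The pair share sequence, and reads that aligned to both could have counted in either. Zfpm1, the GATA1 cofactor FOG1, went from 3 sites (769 nt) to 6 (1812 nt) and 14 (4061 nt), and a readthrough model, Gm20388, overlaps the whole of this region on the same strand. Asap1, an ARF GTPase-activating protein, went from 3 sites (771 nt) to 3 (609 nt) and 16 (4054 nt). Gse1, within the same readthrough model, went from 0 to 2 (513 nt) and 13 (2807 nt). PPSs of any length were also more numerous at day 4 than at day 0 in these genes. They numbered 70, 119 and 142 in Csf2rb and 128, 248 and 272 in Zfpm1 on the 3 days in order. In Asap1 they numbered 318, 551 and 569, and in Gse1 149, 319 and 310. As for the decreases, a change of the same sign in all 4 replicate pairs was a condition of this ranking.

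Lists of erythroid genes were then examined. Of the 9 heme synthesis genes, which all had PPSs on every day, 1, 1 and 5 held a long site (11.1%, 11.1% and 55.6%, against 7.79%, 4.74% and 7.2% of all genes with a PPS). Those at day 4 included Alad (4 sites, 1057 nt) and Ppox (2 sites, 610 nt). PPSs of any length numbered 6, 32 and 44 in Alad and 13, 21 and 23 in Ppox on the 3 days in order. Of 6 members with a long site on any day, 5 were higher and 1 lower at day 4 than at day 0 in all 4 replicate pairs (40.3% and 42% of all genes with a long site). Both replicates held the same merged sites in Alad (1057 nt each at day 4) and Ppox (610 nt each). Such pairs are not independent comparisons, here and in the lists below. Genes of the red cell membrane skeleton held long sites in 3 of 21, 3 of 22 and 9 of 22 cases. Sptb, which encodes beta spectrin, went from 0 to 1 and 10 sites (0, 215 and 2582 nt). Epb41, protein 4.1, went from 0 at day 0 and day 2 to 8 sites (1891 nt), Ank1, ankyrin, from 0 to 1 and 5 sites (0, 222 and 1204 nt), and Gypc, a glycophorin, from 0 to 4 sites at day 4 (901 nt). Of 12 membrane genes with a long site, 9 were higher and 3 lower at day 4 than at day 0 in all 4 replicate pairs, where 40.3% and 42% of all genes with a long site were. Genes of iron handling held long sites in 3 of 15, 2 of 16 and 5 of 16 cases. Among them Slc25a37, the mitochondrial iron importer mitoferrin, held 0, 407 and 2577 nt, of which 2037 nt at day 4 were in the 3′ UTR. Its PPSs of any length numbered 23, 78 and 110. Of the globin genes, 0 of 3, 1 of 4 and 1 of 4 with a PPS held a long site. Hba-a1, an alpha globin gene, held no long site at day 0, 1 at day 2 (202 nt) and 3 at day 4 (746 nt), and was the sole globin gene of the 8 listed to hold one. Its PPSs of any length numbered 5, 7 and 5. The near-identical alpha globin copies could have shared reads.

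Erythroid transcription factors held long sites early and late, in 7 of 13, 5 of 13 and 6 of 13 genes, and 4 of them did so on all 3 days. Runx1 held 1392, 780 and 253 nt and Zfpm1 769, 1812 and 4061 nt. Of 9 members with a long site, 4 were higher and 4 lower at day 4 than at day 0 in all 4 replicate pairs, which is near the shares of all genes with a long site (40.3% and 42%).

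**Figure D5:**
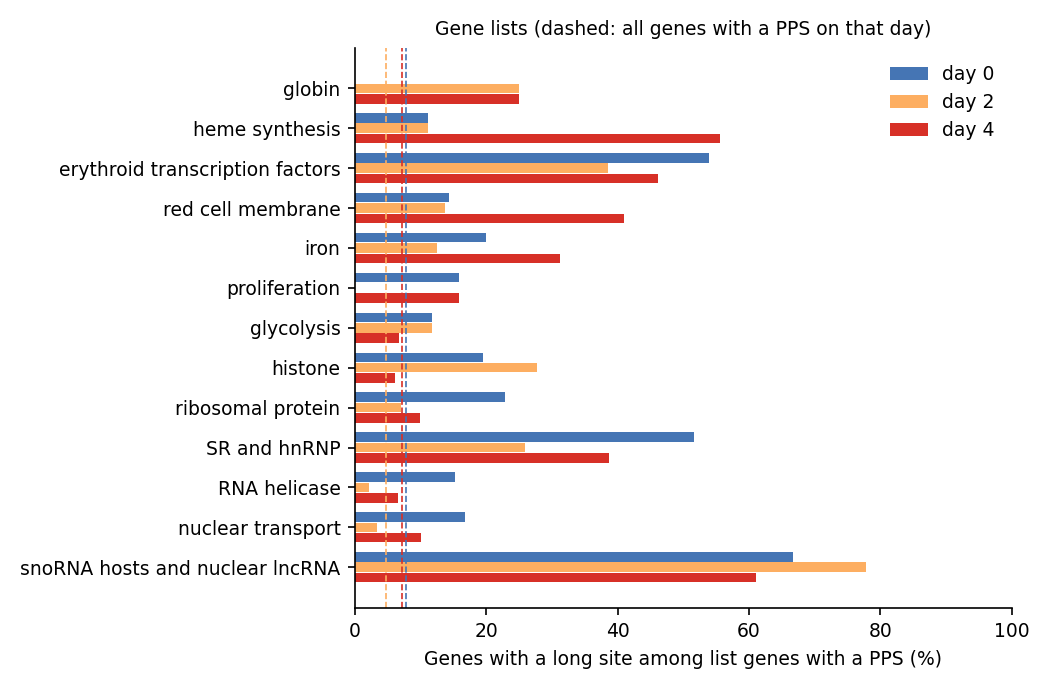
Percentage of the genes of each list with a PPS that hold a long site (x axis) at day 0, day 2 and day 4; dashed lines mark all genes with a PPS on that day (7.79%, 4.74% and 7.2%). Heme synthesis stands at 55.6% at day 4, histone at 27.8% at day 2, and snoRNA hosts with nuclear lncRNAs at 61.1% to 77.8%.

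Lists of RNA-processing and translation genes are set against the same shares of all genes with a PPS, which were themselves highest at day 0 (7.79%, 4.74% and 7.2%). No difference between days was tested for a list. SR and hnRNP splicing factors held one in 16, 8 and 12 of 31 genes (51.6%, 25.8% and 38.7%). Hnrnpu held 1048, 248 and 873 nt and Hnrnph1 held 750, 486 and 1021 nt. Ribosomal protein genes held one in 16 of 70, 5 of 71 and 7 of 71 cases, and 14 of 20 members were lower at day 4 than at day 0 in all 4 replicate pairs and 6 were higher (42% and 40.3% of all genes with a long site). Rps12 held 666, 205 and 0 nt. RNA helicases did so in 7, 1 and 3 of 46 genes, with Ddx17 at 503, 0 and 2034 nt and Ddx5 at 756, 0 and 1272 nt. Histone genes held long sites in 14 of 72, 20 of 72 and 4 of 66 cases, and the replication-dependent copies among them are near identical, so their reads could not be told apart. Among nuclear transport genes (5, 1 and 3 of 30), Ranbp6, an importin that lacks introns, held the highest-scoring PPS of day 4, a site of 880 nt wholly in CDS (chr19:29810387-29811266, minus strand, 22 calls with 4 and 5 from ssRNase and 7 and 6 from dsRNase, score 292.73). Its long sites summed to 637, 259 and 2009 nt. Proliferation genes held long sites in 3, 0 and 3 of 19 cases, and glycolysis genes in 2 of 17, 2 of 17 and 1 of 15. snoRNA hosts and nuclear lncRNAs held one in 12, 14 and 11 of 18.

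Markers of the labelled lineage were among the genes with a PPS. Erythroid markers held long sites in 0 of 7, 1 of 8 and 4 of 9 genes with a PPS. These are 0%, 12.5% and 44.4%, against 7.79%, 4.74% and 7.2% of all genes with a PPS. Of 2 megakaryocyte markers with a PPS, 1, Itga2b, held 228, 227 and 869 nt in long sites. No gene of the lymphoid, macrophage or fibroblast lists held a long site on any day. None of the 8 lymphoid markers had a PPS of any length, and 1 macrophage marker (day 2) and 1 fibroblast marker (day 0) had one.

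Some long sites lay on no gene of the same strand. They numbered 144 at day 0 (10.7% of long sites), 99 at day 2 (13.4%) and 229 at day 4 (15.3%), against 4.70%, 5.66% and 5.54% of shorter PPSs. Of these, 87, 62 and 139 lay within 100 kb past the end of a protein-coding gene on the same strand, or 60.4%, 62.6% and 60.7%, which is near the 57.4%, 64.5% and 64.8% of shorter PPSs without a gene. Within 10 kb lay 13.2%, 12.1% and 16.2% of the long and 25.3%, 33.0% and 34.5% of the shorter ones. They formed dense groups, and the groups named here were chosen after their values were seen. Between chr3:95663331-95758306, on the plus strand past Mcl1, which encodes a survival factor of the BCL2 family, 8 long sites were found at day 0, 18 at day 2 and 43 at day 4 (1846, 4121 and 11709 nt). Between chrX:166350290-166386971, past Ofd1 on the minus strand, 23, 6 and 20 were found (7575, 1474 and 7105 nt). In a 50-kb bin that starts at chr3 position 6750001, minus strand, 4, 1 and 22 were found (896, 283 and 6508 nt).

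A further group matched the mitochondrial genome. In 6 long sites at day 0, 8 at day 2 and 11 at day 4, at least 50% of the 30-nt words were also present in mitochondrial DNA. All but 1 on each day lay between 24611712 and 24616181 on chromosome 1, in a nuclear copy annotated with unprocessed pseudogenes such as Gm10925. The longest of them, 1646 nt at day 0 (chr1:24613175-24614820, minus strand), had 12 calls, all from dsRNase, and all of its 30-nt words were mitochondrial. None of these sites held ssRNase calls only, while 2, 5 and 9 of them held dsRNase calls only. The lists held no site on the mitochondrial chromosome itself. The source of these reads was not tested.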

How the data were processed

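PIP-seq was performed on 24 libraries of MEL cells (3 time points, 2 nucleases, with or without protein, 2 replicates). Per the labels and the methods, the authors trimmed reads with cutadapt 1.2.1, aligned them to mm10 with TopHat 2.0.10 (up to 10 hits per read), collapsed duplicates, and called PPSs with a modified CSAR Poisson test at an FDR of 5%. The deposited score of a PPS is the authors' enrichment value, summed over merged calls; starts, ends and call names were used as deposited. How libraries were scaled before calling is not given in the sources used here. Depth is unknown, and intervals cover counting error only.

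PPS ends fell within GRCm38 chromosome lengths. Each nucleotide was placed in 1 class (CDS, then UTR, other exon, intron) on the same strand in GENCODE M21. Call names matched the titles of the libraries with protein, which gave 12 call sets. Per the methods, each culture was split into its 4 libraries, so same-numbered libraries of a day are paired. A list is pooled per day, so replicate values are sites holding a call of that replicate. Call sets were compared by two-sided exact permutation tests within day or nuclease, with Benjamini-Hochberg adjustment. Arrays were extended while a 12-nt word recurred within 200 nt, with gaps up to 50 nt.

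Named genes are the 3 longest and 3 highest-scoring sites per day, the 5 genes with the most long-site nucleotides per day, 10 present on all days in both replicates, the 5 largest increases and decreases from day 0 to day 4, and up to 4 members per list; predicted and RIKEN symbols were left out of the gene parts. The increases and decreases were ranked among genes with a change of the same sign in all 4 replicate pairs. Members, lists and rules were chosen with earlier results of these data known. The tandem-repeat measure was added after the sequences were seen. On simulated data, 200 of 200 planted repeat windows and 0 of 200 random ones were called. An upper limit for a count of 0 is 3 counts of the total. Alternatives to the length minimum, score, replicates, classes and gene rules were run. Python 3.11.15, numpy 2.4.6, pandas 2.3.3 and matplotlib 3.10.9 were used.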

Additional observations from a re-analysis of the deposited data

Results flagged for a closer look

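One result moved in opposite directions in the 2 nucleases. It was the only such case in a scan of the length, class, base and repeat measures over all pairs of days. Among PPSs that hold a call of a set, the percentage that were long was higher at day 4 than at day 0 in every ssRNase pair, by 0.330 points on average (0.246 to 0.413), and was lower in every dsRNase pair, at -0.195 points on average (-0.352 to -0.0367). The 2 ssRNase sets of day 0 stood at 1.97% and 2.10% and those of day 4 at 2.34% and 2.38%, and the dsRNase sets at 2.00% and 1.99% against 1.65% and 1.95%. In the dsRNase sets, long sites numbered 675 of 33777 and 798 of 40191 at day 0, and 1096 of 66586 and 986 of 50594 at day 4. Their count thus rose while their share fell. In the ssRNase sets they numbered 1224 of 62202 and 1182 of 56381 at day 0, and 1249 of 53323 and 1251 of 52539 at day 4. The difference between nucleases was not tested.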

How the results depend on the processing

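With a length minimum of 150 nt the counts on the 3 days in order were 4126, 2335 and 4329 and the shares on tandem repeats 10.5%, 17.8% and 8.20%. The share of PPSs past that minimum differed between day 4 and day 0 by -0.137 points, the mean share of nucleotides within PPSs of another day was 60.1% (66.2% at 200 nt), and 592 genes (184 at 200 nt) had a site on all days. With 300 nt the counts were 292, 162 and 338, the repeat shares 46.2%, 59.9% and 33.4%, the mean share within PPSs of another day 74.7%, and the genes 51. Day 2 had the fewest sites at each minimum. Without sites on tandem repeats 119 genes had a long site on all days.

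When the same number of highest-scoring PPSs was taken from each list, day 4 minus day 0 became 0.102 points, with an interval past 0. Among PPSs with calls of both replicates it was -0.331 points, the repeat share at day 4 was 13.8% and the mean share within PPSs of another day 53.2%. Leaving out a replicate keeps only PPSs with a call of the other one on that day, which removes mostly short PPSs, so the difference moves with the list it shortens. Day 4 minus day 0 ran from -0.521 to 0.611 points, negative without either replicate of day 0 and positive without either of day 4. Day 2 minus day 0 ran from -1.06 (without either replicate of day 0) to -0.275 (without replicate 1 of day 2; -0.303 without replicate 2). Day 4 minus day 2 ran from 0.281 (without replicate 1 of day 2; 0.309 without replicate 2) to 1.15 (without replicate 1 of day 4; 0.955 without replicate 2). Genes with long sites on all days numbered 179 to 182.

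Among single-call PPSs, the difference between nucleases was 0.0470 points with the replicate number as a block, since libraries of the same number and day share a culture (exact permutation adjusted p = 0.281). It ran from 0.0406 to 0.0534 when a replicate was left out. The block changed no other call. Day 4 minus day 0 was 0.00250 points with a minimum of 300 nt, 0.0675 over all PPSs with a call of the set, and -0.0139 to 0.0126 when a replicate was left out.

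None of the composition differences of single-call long sites passed its test, and most changed sign somewhere. Day 4 minus day 0 over all PPSs with a call of the set was -6.24 points for introns, 3.29 for CDS, 0.685 for A, 0.186 for G and -0.717 for T, and ssRNase minus dsRNase was -0.253 for 5′ UTRs and -0.490 for T. Day 4 minus day 0 for 3′ UTRs was -4.85 with a minimum of 150 nt, -3.88 with 300 nt and -8.79 when each PPS that touches a class was counted. For 5′ UTRs it was 1.65 with 150 nt and 1.23 with that count, and for G 1.04 with 150 nt. When a replicate was left out, day 4 minus day 0 ran from -4.81 to 24.6 for introns, -31.4 to 0.830 for CDS, -2.40 to 8.13 for 3′ UTRs, -1.49 to 0.381 for 5′ UTRs, -2.17 to 1.84 for A and -3.11 to 0.456 for G. The nuclease difference ran from -29.3 to 4.32 for CDS and -11.1 to 1.18 for 3′ UTRs. The cause of these changes was not tested, and with 0 to 34 such sites in a set the lists cannot resolve their composition.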
